A study of Mus musculus with 12 samples.

Results

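The retinas of immunized mice needled at the control acupoint GV16 were compared with the retinas of SHAM mice across all expressed genes. The libraries were taken by their labels, 3 GV16 and 3 SHAM libraries, which made 6 of the 12 libraries of the study. Of 54532 genes in the count table, 34538 had a read in any library and 18299 passed the filter on low counts and were tested. The other groups of the study were immunized mice without needling (MOG) and immunized mice needled at GB20, with 3 libraries each, and they entered this comparison through the filter on low counts, the scaling and the common estimate of the spread. In a fit of the 6 GV16 and SHAM libraries alone, 59 of the 120 genes called below were called and 61 were not.

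All libraries came from wild type C57BL/6 mice at 13 weeks of age, and the mice were female. GV16 mice had been immunized with the MOG35-55 peptide of myelin oligodendrocyte glycoprotein in complete Freund's adjuvant together with pertussis toxin, which induces experimental autoimmune encephalomyelitis (EAE) with optic neuritis. They were then needled repeatedly at GV16 under xylazine and ketamine anaesthesia. SHAM mice are labelled as the sham control, and the sources used here do not say which injections or anaesthesia they had, so that needling, anaesthesia, adjuvant and peptide cannot be told apart in this comparison. The experiment was run 3 times with more than 1 mouse in a group each time, so a library may hold the retinas of several mice, and p-values measure the spread between libraries.

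Retinal ganglion cells (RGCs) are the only neurons that send axons out of the eye, and in optic neuritis those axons are inflamed and lose myelin in the optic nerve while the cell bodies lie in the retina. Their axons are filled with neurofilaments, and they carry transcription factors such as Brn3a, encoded by Pou4f1, that other retinal cells lack. Müller glia and astrocytes answer injury with reactive gliosis, in which intermediate filament, acute phase and cytokine signalling genes rise, and microglia, the resident macrophages, take up debris and release complement.

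The libraries held 15860278 to 16198995 counted reads in GV16 and 16637268 to 18033426 in SHAM. Values are given below as counts scaled to a common library size by TMM (CPM), always in the order of replicates 1, 2 and 3, and only values per kilobase (FPKM) are compared between genes. The 27 rod genes of the list used to check the tissue label all passed the filter and summed to 86390 to 92110 CPM in GV16 and 86970 to 93240 CPM in SHAM. Of 14 T cell markers 1 had enough reads to be tested, Cd3d and Ifng had no read in the 6 libraries, and none of 10 B cell and neutrophil markers could be tested. SHAM replicate 2 stood apart from the other libraries, with a median distance to them of 49.8 against 35.9 to 42.2 for the others. The deviations of each library from the gene means over the 12 libraries were also correlated with exon length (Spearman). SHAM replicate 2 had the lowest value, at -0.35 against -0.26 to 0.23 in the others. The counts below are therefore also given without single libraries where that mattered.

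GV16 retinas differed from SHAM retinas in 120 genes at an adjusted p under 0.05 (edgeR quasi-likelihood test, Benjamini-Hochberg adjustment), which was 0.656% of the genes tested. In GV16, 41 genes were higher (0.224%) and 79 were lower (0.432%). These differentially expressed genes (DEGs) had a median log2 fold change of 0.74 on the higher side and -0.58 on the lower side, and 45 of the 120 changed by less than 0.5 on the log2 scale. A log2 change of 1 or more was seen in 21, of which 17 were higher and 4 were lower. The 3 libraries of each group did not overlap for any of the 120 DEGs, against 14.5% of all genes tested. The DEGs were called for a difference between these same libraries, so non-overlap is no further support, also for single DEGs below. Of the 120 DEGs, 110 were protein-coding. In all, 2001 genes (10.9%) had an unadjusted p under 0.05, 960 higher and 1041 lower. Among the DEGs named here, Nefl, Nefm, Uchl1, Ina, Nrn1, Fgf2, Csf1r, Dbp, Hmgcs1 and Gm29264 share 12.1% to 32.8% of their exon positions with a gene on the other strand, and as the strand setting of the counting is not known, their reads may include reads of that gene.

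**Figure D1:**
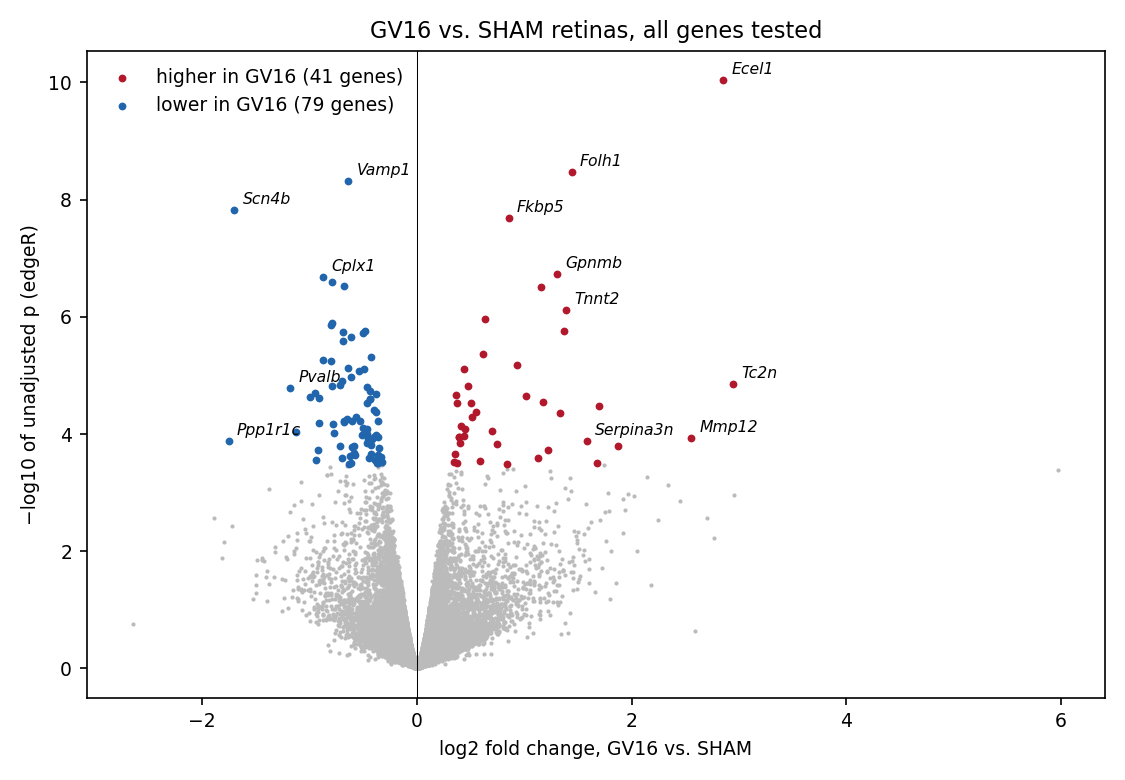
Each point is 1 of the 18299 genes tested, with the log2 fold change of GV16 vs. SHAM on the x axis and -log10 of the unadjusted edgeR p on the y axis, and the 120 DEGs are coloured by direction. Ecel1, Folh1, Vamp1, Scn4b and Fkbp5 stand at the top, the 79 lower genes lie mostly between 0 and -1, and the grey point farthest to the right is Sprr1a, which had no read in SHAM.

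The number of DEGs depended on single libraries. It was 30 without SHAM replicate 1, 231 without SHAM replicate 3, 186 without GV16 replicate 1, 48 without GV16 replicate 2 and 23 without GV16 replicate 3, and it stayed at 95 to 116 when any other library was left out. Still, 21 of the 120 DEGs were called in all 12 fits that left out 1 library, among them Ecel1, Folh1, Fkbp5, Gpnmb, Fam107a, Tnnt2, Camk1d, Lad1 and Ctss on the higher side and Vamp1, Scn4b, Cplx1, Nefl, Uchl1, Sncg, Nefh, Lynx1, Slc29a4, Chrna6 and Thy1 on the lower side. The rest of the DEGs each lost the call without at least 1 library, and none of the 120 changed direction in any of them or in any of the 14 other settings.

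**Figure D2:**
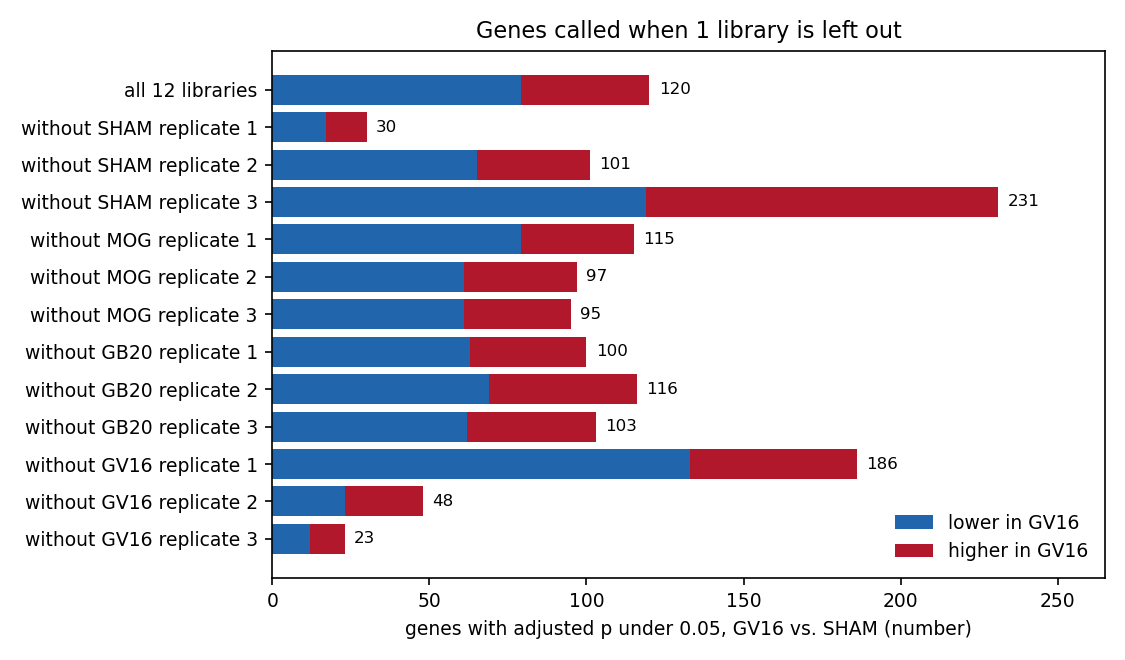
Bars give the number of genes with an adjusted p under 0.05 in GV16 vs. SHAM (x axis), lower in GV16 in blue and higher in red, for all 12 libraries and with 1 library left out at a time (y axis). The count falls to 23 without GV16 replicate 3 and reaches 231 without SHAM replicate 3.

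Many genes of retinal ganglion cells were lower in GV16 retinas. All 5 neurofilament and neuronal intermediate filament genes were below SHAM, and 4 of them (Nefl, Nefm, Nefh and Ina) were called lower against 0.432% of all genes, with a median log2 fold change over the list of -0.80 against 0.00 for all genes tested. Of 13 pan-RGC markers, 11 were called lower and the median was -0.61, with 5 called in edgeR on the 6 libraries alone and 4 with limma on log2(FPKM + 1). Fewer ganglion cells and less RNA per ganglion cell cannot be told apart in whole retinas.

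Nefl (chr14:68083863-68089095), the light chain of neurofilaments, had 293, 284 and 263 CPM in SHAM and 193, 159 and 132 CPM in GV16. The GV16 libraries all lay below the lowest SHAM library, and the fall was 42.4% (log2 fold change -0.80 ± 0.10 (SE), edgeR adjusted p = 0.000566). Nefh, the heavy chain, had 108, 93.1 and 91.8 CPM in SHAM and 66.1, 55.4 and 46.1 CPM in GV16 (log2 fold change -0.80 ± 0.11 (SE), edgeR adjusted p = 0.0018). Nefm, the middle chain, had 158, 134 and 136 CPM in SHAM and 96.4, 63.1 and 65.7 CPM in GV16, and GV16 replicate 1 was the highest of the GV16 libraries for all 3 chains (log2 fold change -0.92 ± 0.17 (SE), edgeR adjusted p = 0.0352). Per length, Nefl was the most abundant of them with 82.1 ± 4.51 FPKM in SHAM and 47.5 ± 9.07 FPKM in GV16 (mean ± SD, n = 3), and the level of Nefh was 24.2 ± 2.17 FPKM in SHAM and 13.9 ± 2.50 FPKM in GV16. Ina, which encodes alpha-internexin, another filament protein of neurons, had 104, 98.5 and 90.4 CPM in SHAM and 76.5, 61.1 and 63.7 CPM in GV16, again without overlap (log2 fold change -0.54 ± 0.09 (SE), edgeR adjusted p = 0.00537). Prph, encoding peripherin, was the fifth member, with log2 fold change -0.81 ± 0.19 and an edgeR adjusted p of 0.0533. In the annotation, 32.8% of the exon positions of Nefl are shared with Nefm on the opposite strand. The Nefm call was lost in 8 of the 12 fits that left out 1 library, among them those without SHAM replicate 1, 2 or 3.

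Thy1, a surface glycoprotein long used to mark RGCs in the retina, had 163, 161 and 149 CPM in SHAM and 122, 98.8 and 88.2 CPM in GV16 (log2 fold change -0.61 ± 0.10 (SE), edgeR adjusted p = 0.00209). Sncg, which encodes gamma-synuclein, had 68.6, 82.0 and 61.9 CPM in SHAM and 49.5, 39.7 and 33.9 CPM in GV16 (log2 fold change -0.79 ± 0.11 (SE), edgeR adjusted p = 0.0018). Uchl1, a neuronal deubiquitinating enzyme, had 141, 119 and 116 CPM in SHAM and 86.5, 80.0 and 68.2 CPM in GV16 (log2 fold change -0.68 ± 0.09 (SE), edgeR adjusted p = 0.000566). In each of the 3 genes the highest GV16 library was below the lowest SHAM library. The RNA-binding proteins Rbpms and Rbpms2, both standard RGC markers, were also lower, and Rbpms2 had 22.8, 21.9 and 20.5 CPM in SHAM and 16.8, 10.5 and 10.4 CPM in GV16 (log2 fold change -0.79 ± 0.14 (SE), edgeR adjusted p = 0.00789). Its GV16 replicates 2 and 3 lay well under replicate 1, a spread that also appeared in Rbpms (log2 fold change -0.68 ± 0.13 (SE), edgeR adjusted p = 0.0177). The nicotinic receptor subunit gene Chrna6 fell by 29.6% with little spread, at 103, 92.7 and 95.1 CPM in SHAM and 74.2, 66.5 and 63.8 CPM in GV16 (log2 fold change -0.51 ± 0.08 (SE), edgeR adjusted p = 0.00192). The calls were completed, with log2 fold changes ± SE and edgeR adjusted p-values in brackets, by the vesicular glutamate transporter Slc17a6 (-0.59 ± 0.12, 0.0401), the axon growth protein Nrn1 (-0.72 ± 0.15, 0.0314), the secreted protein Nell2 (-0.62 ± 0.14, 0.0431), the microtubule regulator Stmn2 (-0.53 ± 0.11, 0.0177) and the tubulin Tubb3 (-0.37 ± 0.07, 0.0177). Chrnb3, the partner subunit of Chrna6, had a log2 fold change of -0.49 and an adjusted p of 0.0731, and Resp18 had -0.40 and 0.166 (edgeR).

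**Figure D3:**
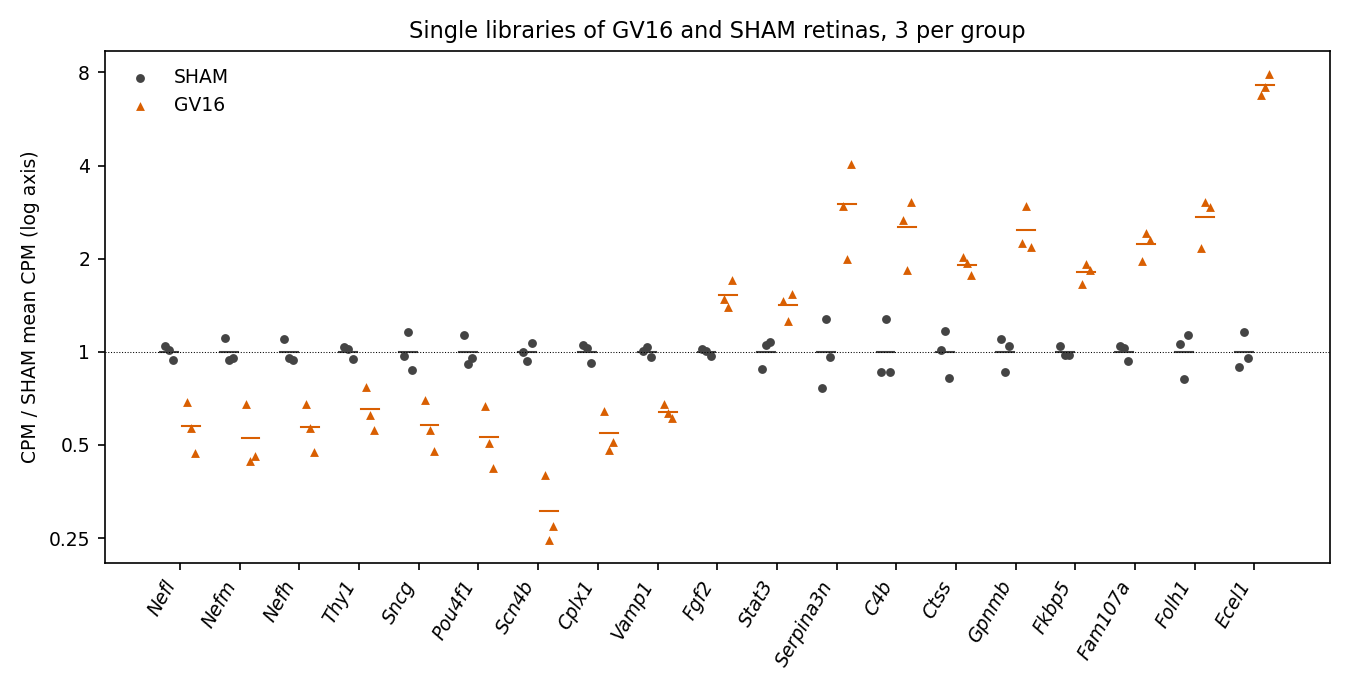
Points are single libraries, 3 SHAM (circles) and 3 GV16 (triangles), as CPM divided by the SHAM mean of the gene on a log axis, and bars are group means. In the 9 genes on the left every GV16 library lies below every SHAM library, and in the 10 genes on the right every GV16 library lies above.

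Among 14 transcription factors of ganglion cells, 3 were called lower against 0.432% of all genes and 12 had log2 fold changes below 0, with a median of -0.26. In edgeR on the 6 libraries alone 1 was called. The 3 were the POU factors Pou4f1 and Pou4f2 and the LIM factor Isl2, which act in RGC specification and survival. Pou4f1 had 37.2, 30.1 and 31.4 CPM in SHAM and 22, 16.6 and 13.9 CPM in GV16 (log2 fold change -0.91 ± 0.16 (SE), edgeR adjusted p = 0.0101), Pou4f2 had log2 fold change -0.78 ± 0.16 (adjusted p = 0.0193) and Isl2 -0.78 ± 0.16 (adjusted p = 0.0246), by edgeR. Isl1 and Ebf3, which amacrine or bipolar cells also express, had log2 fold changes of 0.04 and -0.08. None of 18 markers of single RGC subtypes was called at this depth by edgeR, 5 had an unadjusted p under 0.05 against 10.9% of all genes, and the median of the 18 was -0.17. Opn4, the melanopsin of the intrinsically photosensitive type, was the lowest of them (-0.70, edgeR adjusted p = 0.194).

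Calls on these lists rested on the same libraries as the whole count. Of the 13 pan-RGC markers 4 were called without SHAM replicate 1, 4 without GV16 replicate 2 and 4 without GV16 replicate 3. Of the neurofilament genes 2 were called in each of these 3 fits, and of the transcription factors none was. Nefl, Nefh, Thy1, Sncg, Uchl1 and Chrna6 were called in all 12 fits that left out 1 library.

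Some genes of the axon and of transmitter release fell too. Of 9 voltage-gated sodium channel subunits 2 were called lower against 0.432% of all genes, and Scn4b was 1 of them. Scn4b (chr9:45138395-45154152), a beta subunit that modulates voltage-gated sodium channels, had the second largest fall of all DEGs, with 12, 11.2 and 12.8 CPM in SHAM and 4.78, 2.96 and 3.28 CPM in GV16. No GV16 library reached 5 CPM and no SHAM library was under 11 CPM, and the level in GV16 was 0.307-fold that of SHAM (log2 fold change -1.70 ± 0.20 (SE), edgeR adjusted p = 6.98e-05). Scn1a and Scn8a, which form channel pores, were not called. Scn1a had a log2 fold change of -0.31 ± 0.10 (edgeR adjusted p = 0.188) and Scn8a 0.12 ± 0.08 (edgeR adjusted p = 0.633). Of 18 potassium channel genes 1 was called lower against 0.432% of all genes. It was Kcnip4, a calcium-binding subunit of A-type channels (log2 fold change -0.47 ± 0.09 (SE), edgeR adjusted p = 0.0109), and that call was lost without SHAM replicate 1, GV16 replicate 2 or GV16 replicate 3.

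Vamp1 (chr6:125215551-125245964), a vesicle SNARE protein, had 111, 115 and 106 CPM in SHAM and 75.1, 69.8 and 67.5 CPM in GV16 and was the most strongly supported of the lower genes (log2 fold change -0.64 ± 0.07 (SE), edgeR adjusted p = 2.93e-05). Cplx1, encoding complexin 1, which clamps SNARE complexes until calcium enters, had 115, 112 and 101 CPM in SHAM and 70.5, 52.5 and 55.8 CPM in GV16 (log2 fold change -0.88 ± 0.11 (SE), edgeR adjusted p = 0.000546). Both were well separated between the groups. They were the 2 called among 28 genes of the synaptic release machinery, against 0.432% of all genes called lower. The median log2 fold change of the 28 was -0.09, and the vesicular glutamate transporter gene Slc17a7 had -0.05. Of 24 microtubule and axonal transport genes 4 were called lower against 0.432% of all genes. These were Stmn2 and Tubb3 of the pan-RGC list, the tubulin polymerization gene Tppp3 (log2 fold change -0.61 ± 0.13 (SE), edgeR adjusted p = 0.0332) and the neuronal kinesin heavy chain Kif5a (log2 fold change -0.36 ± 0.08 (SE), edgeR adjusted p = 0.0454). Dpysl3, a collapsin response mediator protein of growing axons, was the 1 member called higher, with 261, 243 and 297 CPM in SHAM and 346, 359.9 and 347 CPM in GV16 (log2 fold change 0.39 ± 0.08 (SE), edgeR adjusted p = 0.0261). None of the 24 was called without SHAM replicate 1, GV16 replicate 2 or GV16 replicate 3.

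Ecel1 (chr1:87147655-87156521), a membrane metallopeptidase that neurons make after axon injury, was the gene with the smallest p of all. It had 0.727, 0.941 and 0.777 CPM in SHAM and 5.53, 5.85 and 6.44 CPM in GV16, so the lowest GV16 library was above 5 CPM and the highest SHAM library below 1 CPM. The level in GV16 was 7.23-fold that of SHAM (log2 fold change 2.85 ± 0.25 (SE), edgeR adjusted p = 1.67e-06), from 0.231 ± 0.0319 FPKM in SHAM and 1.69 ± 0.132 FPKM in GV16. Of 20 tested genes induced in neurons by axon injury it was the only one called, against 0.224% of all genes called higher. Yet Sprr1a, a small proline-rich protein of regenerating neurons, had no read in the 3 SHAM libraries and 22 reads in the 3 GV16 libraries, at least 7.83-fold higher when SHAM is set to 3 counts in all (edgeR adjusted p = 0.0596). Atf3 (0.09), Gap43 (-0.30) and Jun (-0.08) had small log2 fold changes, and the list as a whole had a median of -0.04.

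**Figure D4:**
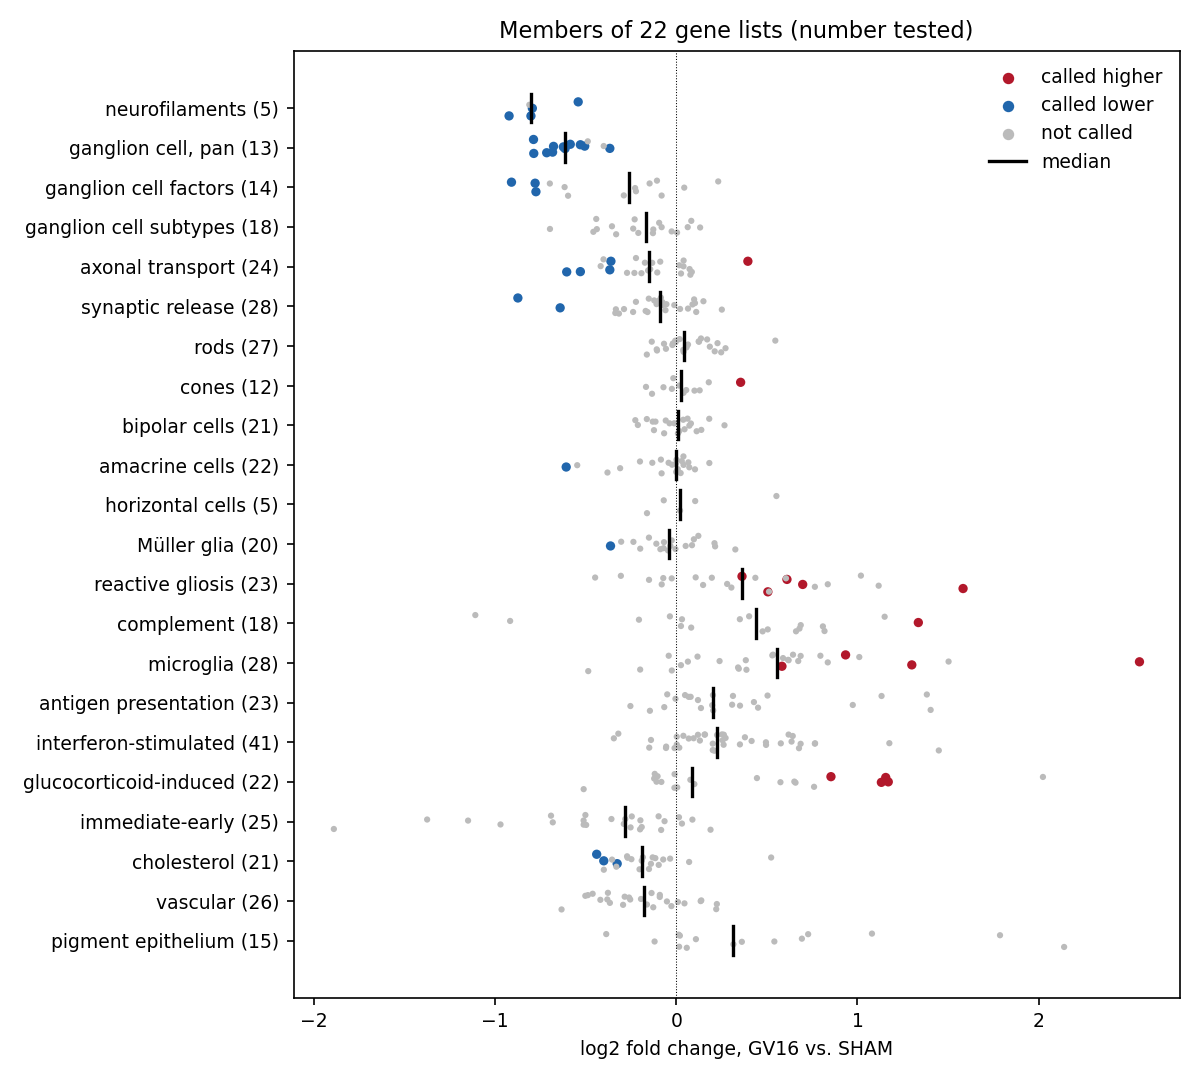
Each point is a gene of 1 of 22 lists (y axis, number tested in brackets) with its log2 fold change of GV16 vs. SHAM on the x axis, coloured where the adjusted p was under 0.05, and black bars are medians. Neurofilament and pan-RGC points lie to the left of 0, gliosis, complement and microglia medians lie between 0.36 and 0.56, and rod, cone, bipolar, amacrine and horizontal cell medians lie within 0.04 of 0.

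Few genes of the other retinal neurons were called. Over all genes tested, 0.224% were called higher, 0.432% were called lower and 10.9% had an unadjusted p under 0.05 (edgeR). None of 27 rod, 21 bipolar or 5 horizontal cell genes was called by edgeR, with 4, 1 and 0 of them at an unadjusted p under 0.05 and medians of 0.04, 0.01 and 0.02. Of 12 cone genes Opn1mw, the M-cone opsin, was called higher (log2 fold change 0.35 ± 0.08 (SE), edgeR adjusted p = 0.0404), while the S-cone opsin Opn1sw had -0.13. Of 22 amacrine cell genes Calb2, which encodes calretinin, was called lower, with 253, 280.3 and 224 CPM in SHAM and 196, 158 and 142 CPM in GV16 (log2 fold change -0.61 ± 0.11 (SE), edgeR adjusted p = 0.0177). Calretinin is also made by ganglion cells. Of 20 genes of Müller glia homeostasis 1 was called, Rlbp1, the retinaldehyde-binding protein of the visual cycle (log2 fold change -0.36 ± 0.08 (SE), edgeR adjusted p = 0.0261), and the glutamine synthetase gene Glul, an abundant marker of these cells, had a 95% interval of the log2 fold change of -0.16 to 0.15. Without SHAM replicate 1, GV16 replicate 2 or GV16 replicate 3 the calls of Opn1mw, Calb2 and Rlbp1 were lost.

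Part of the reactive gliosis genes rose in GV16 retinas. Of 23 tested, 5 were called higher against 0.224% of all genes, none was called lower, 17 had log2 fold changes above 0 and the median was 0.36. Serpina3n, a secreted protease inhibitor of reactive glia, had 15.7, 10.6 and 21.4 CPM in GV16 and 4.06, 6.76 and 5.11 CPM in SHAM (log2 fold change 1.58 ± 0.28 (SE), edgeR adjusted p = 0.0286). Fgf2, a growth factor that retinal glia and photoreceptors raise after injury, had 44.1, 41.5 and 50.8 CPM in GV16 and 30.5, 29.9 and 28.9 CPM in SHAM (log2 fold change 0.61 ± 0.10 (SE), edgeR adjusted p = 0.00376). Stat3, the transcription factor of gp130 cytokine signalling, had 97.1, 83.8 and 102 CPM in GV16 and 58.4, 69.7 and 71.3 CPM in SHAM (log2 fold change 0.51 ± 0.10 (SE), edgeR adjusted p = 0.0109). The groups did not overlap for these 3 genes, and the GV16 libraries of Serpina3n spread by about their own lowest value. Osmr, the oncostatin M receptor (log2 fold change 0.70 ± 0.15 (SE), edgeR adjusted p = 0.0235), and Cp, the ferroxidase ceruloplasmin (log2 fold change 0.36 ± 0.07 (SE), edgeR adjusted p = 0.00956), completed the list of calls. Gfap, the glial filament protein that defines gliosis, had 40.2, 34.9 and 48.7 CPM in GV16 and 20.6, 26.8 and 21.9 CPM in SHAM without overlap, and at log2 fold change 0.84 ± 0.17 its edgeR adjusted p was 0.0577. Vim, another glial filament gene, had 0.15. Osmr and Stat3 were also the only 2 of 21 genes of the gp130 and STAT3 pathway called, against 0.224% of all genes called higher, and the common receptor subunit Il6st had 0.11. Gliosis calls fell to 1 of 23 without SHAM replicate 1 or without GV16 replicate 3, and to 3 without SHAM replicate 2, and Serpina3n lost its call in 6 of the 12 fits, those without any 1 of the SHAM libraries among them.

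Some microglial genes rose as well. Of 28 tested, 4 were called higher against 0.224% of all genes. Of the 28, 24 had log2 fold changes above 0, and 11 did not overlap upward against 6.86% of all genes. The median was 0.56, and the list summed to 94.0 to 109.0 CPM in GV16 and 65.9 to 72.9 CPM in SHAM. Gpnmb (chr6:49036546-49070929), a transmembrane glycoprotein of phagocytic macrophages, had 6.95, 9.13 and 6.75 CPM in GV16 and 3.39, 2.65 and 3.22 CPM in SHAM (log2 fold change 1.30 ± 0.18 (SE), edgeR adjusted p = 0.000546). Ctss, the lysosomal protease cathepsin S, had 16.9, 16.2 and 14.8 CPM in GV16 and 8.48, 9.76 and 6.88 CPM in SHAM (log2 fold change 0.93 ± 0.16 (SE), edgeR adjusted p = 0.00483). Mmp12, the macrophage metalloelastase, was detected in few reads, at 1.43, 0.771 and 1.67 CPM in GV16 and 0.121, 0.470 and 0.0555 CPM in SHAM (log2 fold change 2.56 ± 0.56 (SE), edgeR adjusted p = 0.0269), and Csf1r, the receptor that keeps microglia alive, had 9.0, 8.94 and 9.41 CPM in GV16 and 6.78, 6.17 and 5.33 CPM in SHAM (log2 fold change 0.58 ± 0.14 (SE), edgeR adjusted p = 0.0469). In all 4 genes the GV16 libraries were above the SHAM libraries. The homeostatic markers P2ry12 (0.34), Cx3cr1 (0.34) and Tmem119 (0.67) had no adjusted p under 0.05 in edgeR, and neither had the phagocytic receptor Trem2 (1.01, adjusted p = 0.0798). The number of microglial calls was 2 without SHAM replicate 1, without SHAM replicate 3, without GV16 replicate 1 or without GV16 replicate 3, and Csf1r was called in none of the 12 fits that left out 1 library. Gpnmb is also a gene of pigment cells, and the 17 pigment epithelium and melanocyte genes summed to 42.8 to 87.2 CPM in GV16 and 41.3 to 51.2 CPM in SHAM. Their part in the value of Gpnmb was not tested.

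Of 18 complement genes 1 was called higher against 0.224% of all genes. This was C4b, a component of the classical pathway, with 18.4, 12.7 and 21.0 CPM in GV16 and 5.93, 8.76 and 5.94 CPM in SHAM (log2 fold change 1.34 ± 0.22 (SE), edgeR adjusted p = 0.0144). The list had a median of 0.44, with the C1q chains C1qa (0.81) and C1qb (0.66) above 0 and the regulator Cd55 (-1.11) below. The C4b call was lost without SHAM replicate 1, SHAM replicate 3 or GV16 replicate 3. No antigen presentation gene of 23 and no interferon-stimulated gene of 41 was called by edgeR. Their medians were 0.20 and 0.22, with 1 and 7 members at an unadjusted p under 0.05, against 10.9% of all genes. Cd74, the invariant chain of class II molecules, was high in 1 GV16 library alone, at 2.79, 0.386 and 0.681 CPM in GV16 and 0.424, 0.353 and 0.666 CPM in SHAM. Oas2, an antiviral enzyme induced by interferon, had 0.248, 0.450 and 0.124 CPM in GV16 and 0.303, 0.294 and 0.222 CPM in SHAM, which did not separate the groups (95% interval of the log2 fold change -1.34 to 1.35). Cxcl10, an interferon-induced chemokine, spread from 0.931, 0.129 and 1.67 CPM in GV16 and 0.484, 0.412 and 0.111 CPM in SHAM and overlapped too.

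Of 22 glucocorticoid-induced genes 4 were called higher against 0.224% of all genes, and 8 did not overlap upward against 6.86%. Fkbp5 (chr17:28399094-28517527), a co-chaperone that dampens the glucocorticoid receptor and is induced by it, had 44.3, 51.6 and 49.1 CPM in GV16 and 28.0, 26.1 and 26.1 CPM in SHAM (log2 fold change 0.85 ± 0.10 (SE), edgeR adjusted p = 7.62e-05). Fam107a, a stress-induced actin-binding protein, had 20.9, 25.6 and 24.3 CPM in GV16 and 11.1, 10.9 and 9.88 CPM in SHAM (log2 fold change 1.16 ± 0.15 (SE), edgeR adjusted p = 0.000566). Both pairs of groups were well apart. Plin4, a coat protein of lipid droplets, had 3.29, 3.79 and 3.65 CPM in GV16 and 1.33, 1.41 and 2.0 CPM in SHAM (log2 fold change 1.17 ± 0.22 (SE), edgeR adjusted p = 0.0109), and Zbtb16, a zinc finger transcription factor, had 8.82, 8.10 and 7.31 CPM in GV16 and 3.94, 2.76 and 4.33 CPM in SHAM (log2 fold change 1.13 ± 0.25 (SE), edgeR adjusted p = 0.0445). Other well-known targets of the receptor were not called. Sgk1 had a log2 fold change of -0.01, Tsc22d3 -0.10 and Per1 -0.01, and the list median was 0.09. Mt2, a metallothionein, had the highest log2 fold change of the list (2.02 ± 0.55, edgeR adjusted p = 0.0985) from less than 1 CPM in every library. The number called was 2 without SHAM replicate 1, without GV16 replicate 2 or without GV16 replicate 3, while Fkbp5 and Fam107a were called in all 12 fits.

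A few cholesterol genes fell by small amounts. Of 21 genes of cholesterol synthesis and sterol transport, 3 were called lower against 0.432% of all genes. Of the 21, 19 had log2 fold changes below 0 and 10 did not overlap downward against 7.6% of all genes, with a median of -0.19. Insig1, which retains the sterol-sensing complex in the endoplasmic reticulum and is itself a target of that pathway, had 106, 93.9 and 89.1 CPM in SHAM and 74.7, 69.2 and 69.0 CPM in GV16 (log2 fold change -0.44 ± 0.08 (SE), edgeR adjusted p = 0.00906). Hmgcs1, an early enzyme of the mevalonate pathway, had 132, 126 and 108 CPM in SHAM and 105, 82.0 and 90.8 CPM in GV16 (log2 fold change -0.40 ± 0.09 (SE), edgeR adjusted p = 0.0261). The groups did not overlap for either gene. The transcription factor Srebf2 had a log2 fold change of -0.19, while the cholesterol exporter Abca1 had 0.52. None of the 21 was called without SHAM replicate 1, GV16 replicate 2 or GV16 replicate 3, and 5 were called without SHAM replicate 3.

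The 250 bases upstream of the annotated starts were searched on both strands for 6 short motifs, since promoter sequence was at hand for 77 of the 120 DEGs (103 windows, RefSeq, GRCm38.p6). The sterol regulatory element TCACNCCAC was found upstream of 2 DEGs, Hmgcs1 and Camk1d, in 2 of the 103 windows against 1.05% of all 32851 windows. Of the 13 cholesterol genes with a window, Hmgcs1 was the 1 gene that held it. The glucocorticoid response element, GNACA and TGTNC with any 3 bases between them, was found upstream of 3 DEGs, all higher in GV16, namely Fam107a, Folh1 and Serpina3n. It was in 4 of the 103 windows, with the same match in overlapping windows of Fam107a, against 0.387% of all windows. Of the 4 glucocorticoid-induced genes called higher, only Fam107a was among them. Over the 19 glucocorticoid-induced genes with a window, called or not, 4 held the element, and the others beside Fam107a were not called. The E-box CACGTG was found upstream of 4 DEGs, in 4 of the 103 windows against 6.02% of all windows. The AP-1 letters TGANTCA were also found upstream of 4 DEGs, in 4 of the 103 windows against 6.75%. The D-box TTATGTAA (0.819% of all windows) and the STAT letters TTCCNGGAA (0.913%) were found upstream of none. Motifs were counted separately where they overlapped, and a match says only that the letters are present. For 3 genes whose values are given here, the bases from 250 to 51 before the start are shown 5′ to 3′ on the strand of the gene, with the motif in capitals.
Hmgcs1, lower in GV16, chr13:119690101-119690300, plus strand: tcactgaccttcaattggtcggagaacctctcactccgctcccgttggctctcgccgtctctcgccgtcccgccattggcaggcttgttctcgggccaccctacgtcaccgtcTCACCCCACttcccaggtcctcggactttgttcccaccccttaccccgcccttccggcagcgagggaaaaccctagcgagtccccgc
Fam107a, higher in GV16, chr14:8309828-8310027, minus strand, within an intron of a longer transcript of the gene: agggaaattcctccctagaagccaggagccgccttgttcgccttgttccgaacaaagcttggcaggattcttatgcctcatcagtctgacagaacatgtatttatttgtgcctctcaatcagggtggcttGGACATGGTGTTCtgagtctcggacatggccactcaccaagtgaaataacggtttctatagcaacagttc
Serpina3n, higher in GV16, chr12:104406458-104406657, plus strand: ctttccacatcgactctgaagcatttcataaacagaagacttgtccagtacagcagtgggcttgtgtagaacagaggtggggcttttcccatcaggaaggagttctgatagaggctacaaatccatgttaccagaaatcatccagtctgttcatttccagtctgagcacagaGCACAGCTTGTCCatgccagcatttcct

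Of 14 output genes of the circadian clock 2 were called lower against 0.432% of all genes, and the median was 0.02. Dbp, a transcription factor with a strong daily rhythm, had 125, 129.8 and 121 CPM in SHAM and 97.7, 93.2 and 88.7 CPM in GV16 (log2 fold change -0.43 ± 0.07 (SE), edgeR adjusted p = 0.00407), and Nr1d1, which encodes the repressor Rev-erb alpha, had 182, 193 and 184 CPM in SHAM and 161, 141 and 135 CPM in GV16 (log2 fold change -0.36 ± 0.08 (SE), edgeR adjusted p = 0.0334). Neither gene's groups overlapped. Per1 (-0.01), Per2 (0.24), Nr1d2 (0.09) and Tef (0.10) were not called, and none of 8 genes of the Bmal1 arm was called by edgeR (1 at an unadjusted p under 0.05, against 10.9% of all genes). The sources used here do not give the time of day at which retinas were taken. Without GV16 replicate 3 neither Dbp nor Nr1d1 was called. The clock output list had 1 gene called lower without SHAM replicate 1, SHAM replicate 2 or GV16 replicate 2. None of 25 immediate-early genes was called either, although 21 had log2 fold changes below 0 and the median was -0.28 (edgeR, 7 with an unadjusted p under 0.05, against 10.9% of all genes). Egr4, a transcription factor raised by neuronal activity, had 4.12, 3.23 and 1.83 CPM in SHAM and 1.12, 1.03 and 0.310 CPM in GV16 (log2 fold change -1.89 ± 0.53 (SE), edgeR adjusted p = 0.151).

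Among genes on no list, Folh1 (chr7:86718977-86775943) had the smallest p. It encodes the glutamate carboxypeptidase that cleaves the neuropeptide N-acetylaspartylglutamate, and it had 28.6, 40.4 and 38.8 CPM in GV16 and 14, 10.8 and 14.9 CPM in SHAM (log2 fold change 1.44 ± 0.14 (SE), edgeR adjusted p = 2.93e-05). Tnnt2, the cardiac isoform of troponin T, had 6.46, 5.14 and 6.25 CPM in GV16 and 2.06, 2.71 and 2.05 CPM in SHAM (log2 fold change 1.39 ± 0.21 (SE), edgeR adjusted p = 0.00128), and Lad1, an anchoring filament protein of epithelia, had 6.39, 4.05 and 5.51 CPM in GV16 and 1.39, 2.47 and 2.27 CPM in SHAM (log2 fold change 1.37 ± 0.22 (SE), edgeR adjusted p = 0.00192). Camk1d, a calcium/calmodulin-dependent kinase, had 282, 353 and 374 CPM in GV16 and 245, 192 and 212 CPM in SHAM (log2 fold change 0.64 ± 0.10 (SE), edgeR adjusted p = 0.00167). In each of the 4 genes every GV16 library was above every SHAM library. Tc2n had the highest log2 fold change of all DEGs, from few reads (0.745, 0.900 and 1.18 CPM in GV16 and 0.0605, 0.0588 and 0.222 CPM in SHAM, log2 fold change 2.94 ± 0.55 (SE), edgeR adjusted p = 0.00789), and Ranbp3l (log2 fold change 1.70 ± 0.33 (SE), edgeR adjusted p = 0.012) and the non-coding Kirrel3os (log2 fold change 1.87 ± 0.42 (SE), edgeR adjusted p = 0.0314) and Gm19653 (log2 fold change 1.68 ± 0.40 (SE), edgeR adjusted p = 0.049) were also among the largest.

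On the lower side, Ppp1r1c, an inhibitor of protein phosphatase 1, had the largest fall of all DEGs, with 2.72, 1.71 and 1.78 CPM in SHAM and 0.745, 0.450 and 0.619 CPM in GV16 (log2 fold change -1.75 ± 0.39 (SE), edgeR adjusted p = 0.0288). Pvalb, the calcium buffer parvalbumin, had 17.1, 17.5 and 11.5 CPM in SHAM and 8.01, 7.59 and 4.71 CPM in GV16 (log2 fold change -1.18 ± 0.20 (SE), edgeR adjusted p = 0.00812). Lynx1, a membrane-anchored modulator of nicotinic receptors, had 217, 205 and 196 CPM in SHAM and 157, 144 and 140.3 CPM in GV16 (log2 fold change -0.48 ± 0.08 (SE), edgeR adjusted p = 0.00192), and Slc29a4, a monoamine transporter, had 20.8, 20.1 and 18.8 CPM in SHAM and 12.6, 12.5 and 11.9 CPM in GV16 (log2 fold change -0.69 ± 0.11 (SE), edgeR adjusted p = 0.00192). None of these overlapped between the groups, and for Slc29a4 the 3 GV16 libraries lay within 1 CPM of each other. Isoc2b (-1.13 ± 0.24), the cytochrome P450 gene Cyp2s1 (-0.996 ± 0.19), Gm29264 (-0.95 ± 0.18) and the receptor tyrosine kinase gene Flt3 (-0.94 ± 0.22) made up the rest of the 8 largest falls beside Scn4b and Nefm, with edgeR adjusted p-values of 0.0241, 0.0101, 0.00947 and 0.0464. Flt3 was called in 2 of the 12 fits that left out 1 library. Mmp9, a gelatinase of the extracellular matrix, was lower (log2 fold change -0.58 ± 0.13 (SE), edgeR adjusted p = 0.0413), and so was Asns, the asparagine synthetase of the integrated stress response (log2 fold change -0.37 ± 0.09 (SE), edgeR adjusted p = 0.0491), the 1 of 28 stress response genes called, against 0.432% of all genes called lower. Both calls depended on single libraries. Mmp9 was lost without SHAM replicate 1, SHAM replicate 2, GV16 replicate 2 or GV16 replicate 3, and Asns was lost without any 1 of the 6 libraries compared other than SHAM replicate 3. None of 26 vascular, 20 apoptosis, 24 glycolysis, 80 ribosomal protein or 78 nuclear respiratory chain genes was called by edgeR, with 5, 2, 7, 1 and 1 of them at an unadjusted p under 0.05, against 10.9% of all genes.

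The same genes were read in the MOG and GB20 groups, whose comparisons share the 3 SHAM libraries with GV16 vs. SHAM, so the values are only set side by side. MOG vs. SHAM had 245 DEGs (1.34% of the genes tested) and GB20 vs. SHAM 63 (0.344%). Of the 13 pan-RGC markers 11 were called lower in GV16, 11 in MOG (0.771% of all genes lower) and 4 in GB20 (0.18%), with medians of -0.61, -0.59 and -0.48. The 14 RGC transcription factors had 3, 5 and 1 called lower, but their median was lowest in GB20 (-0.26, -0.37 and -0.47 in the same order). Gliosis calls were 5 in GV16, 10 in MOG (0.568% of all genes higher) and 8 in GB20 (0.164%) of 23 genes, with medians of 0.36, 0.59 and 0.56. Microglial calls were 4, 6 and 1 of 28, with medians of 0.56, 0.65 and 0.52. Glucocorticoid-induced genes called higher were 4 in GV16, 0 in MOG and 3 in GB20 of 22, with medians of 0.09, 0.04 and 0.22. The MOG count of 0 was by edgeR as well, and 1 of the 22 was called lower in MOG. For Nefl the log2 fold changes were -0.80 ± 0.10 in GV16, -0.94 ± 0.10 in MOG and -0.70 ± 0.10 in GB20, for Scn4b -1.70 ± 0.20, -1.65 ± 0.20 and -1.54 ± 0.19, and for Ecel1 2.85 ± 0.25, 3.05 ± 0.25 and 2.68 ± 0.26.

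Direct tests between the immunized groups found few differences. GV16 vs. MOG had 30 DEGs (0.164% of the genes tested, 0.0656% higher and 0.0984% lower in GV16), and 6 of the 120 genes that separated GV16 from SHAM were among them. None was an RGC or neurofilament gene, and the difference of GV16 from MOG was 0.14 ± 0.10 (SE), adjusted p = 0.997 for Nefl (95% interval -0.07 to 0.36) and -0.05 ± 0.22 (SE), adjusted p = 0.998 for Scn4b (95% interval -0.50 to 0.41), both by edgeR. Against MOG, GV16 was higher in Fkbp5 (log2 difference 0.66 ± 0.10 (SE), adjusted p = 0.00395, edgeR), Folh1 (0.83 ± 0.14 (SE), adjusted p = 0.0104, edgeR) and Fam107a (0.78 ± 0.15 (SE), adjusted p = 0.0415, edgeR), and lower in Fgf2 (-0.52 ± 0.10 (SE), adjusted p = 0.0235, edgeR), Osmr (-0.66 ± 0.14 (SE), adjusted p = 0.0472, edgeR) and Gm13029 (-0.76 ± 0.15 (SE), adjusted p = 0.0347, edgeR). For Fgf2 and Osmr this put GV16 between SHAM and MOG, while for Fkbp5, Folh1 and Fam107a MOG lay between SHAM and GV16. Gm13029 had 11.6, 16.4 and 11.2 CPM in SHAM and 7.64, 8.16 and 9.35 CPM in GV16 and a log2 fold change of 0.13 ± 0.14 in MOG vs. SHAM, and its call against SHAM held in 2 of the 12 fits that left out 1 library. GV16 vs. GB20 had 1 DEG (0.00546%), Gpnmb, which was higher in GV16 (log2 difference 1.23 ± 0.18 (SE), adjusted p = 0.00697, edgeR) and had 0.07 ± 0.19 in GB20 vs. SHAM.

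**Figure D5:**
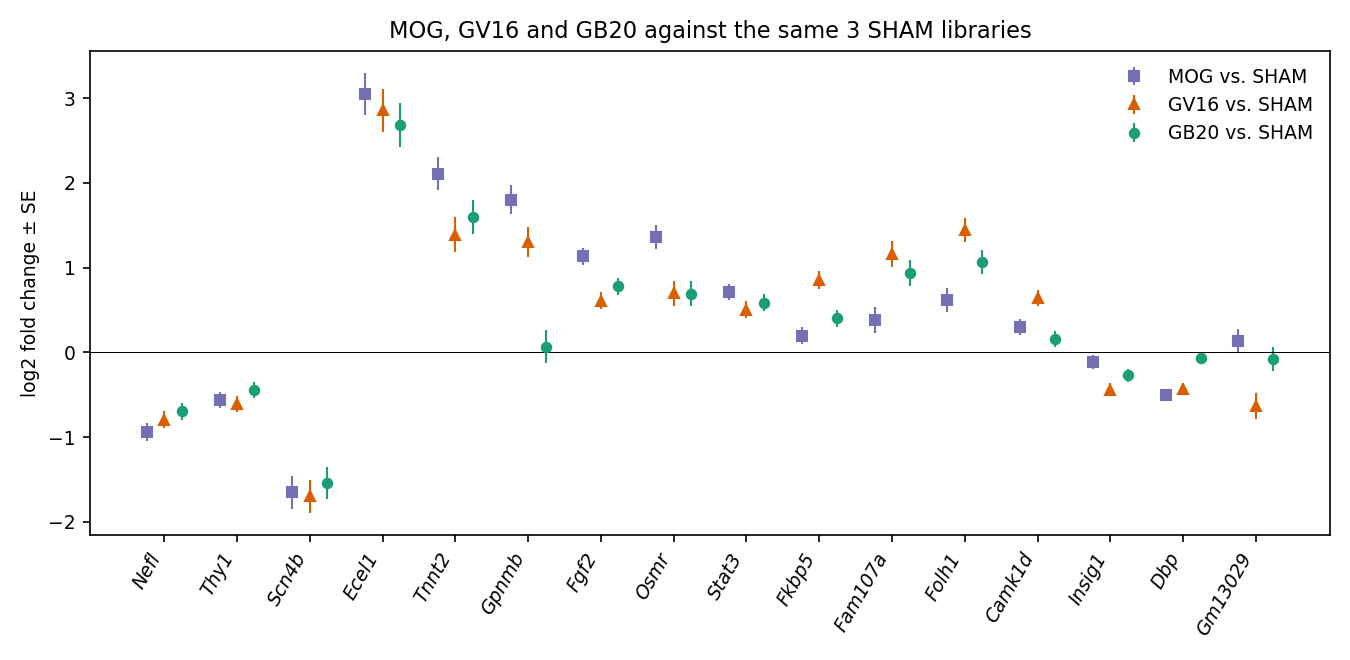
Symbols give the log2 fold change ± SE (y axis) of 16 genes in MOG, GV16 and GB20, each against the same 3 SHAM libraries. The groups lie close for Nefl, Thy1, Scn4b and Ecel1, GV16 is highest for Fkbp5, Fam107a and Folh1, MOG is highest for Fgf2 and Osmr, and GB20 is near 0 for Gpnmb at 0.07. Between GV16 and GB20 only Gpnmb differed at an adjusted p under 0.05 (edgeR).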

How the data were processed

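Retinal polyadenylated RNA of 12 libraries in 4 groups of 3 was sequenced by the authors, and 6 libraries (GV16 and SHAM) were compared. The authors aligned paired reads with HISAT2 (2.0.5 to mm10 per the submitters' processing notes) and counted them per gene with FeatureCounts. They deposited whole-number counts per gene without normalization, and FPKM values of the same libraries. The annotation release and the strand setting are not stated in the sources used here, and exons of 16 DEGs overlap another gene over more than 10% of their length, so such reads cannot be assigned with certainty. Genes were named and placed with GENCODE vM21 (GRCm38), which left 37 identifiers without annotation. Promoter windows came from RefSeq.

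Counts were fitted in R 4.3.3 with edgeR 4.0.16 (filterByExpr, TMM, robust quasi-likelihood, 1 mean for each of the 4 groups, 8 residual degrees of freedom, all 12 libraries), and p-values were adjusted by Benjamini-Hochberg over 18299 genes. SE was taken from the quasi-likelihood F statistic. Alternatives used DESeq2 1.42.0, limma 3.58.1 on log2(FPKM + 1) and log2(FPKM + 0.1), other filters and scalings, a length offset, a replicate block and the leaving out of each library. The scripts were tested on simulated data. Python 3.11.15 with matplotlib 3.10.9 made the figures.

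The groups compared and the 43 gene lists were chosen with earlier results of these data known, so the lists are described by counts and medians and were not tested as sets. Genes were named by rule: the 10 smallest p-values and the 8 largest changes among DEGs in each direction, every DEG on a list, of each list the 2 members with the most reads and the 2 with the smallest p, and DEGs that also differed from MOG or GB20. A few genes that this rule names are not reported here. Other list members and the 3 promoters shown were chosen after their values were seen. The depth of 15860278 to 19194280 counts per library sets the counting error, and counts within SHAM and within GV16 differed by more than sampling noise (chi-square per gene 4.75 to 16.5), so all 6 were taken as separate libraries.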

Additional observations from a re-analysis of the deposited data

Results flagged for a closer look

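Results are listed here because the effect in GV16 differed from the effect in another immunized group by a direct test (edgeR, Benjamini-Hochberg adjustment over 18299 genes). Between GV16 and MOG, the log2 difference was 0.66 for Fkbp5, 0.83 for Folh1 and 0.78 for Fam107a, with each GV16 mean above MOG. It was -0.52 for Fgf2, -0.66 for Osmr and -0.76 for Gm13029, with each GV16 mean below MOG. Between GV16 and GB20, the log2 difference was 1.23 for Gpnmb, which was higher in GV16.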

How the results depend on the processing

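The count of 120 DEGs (41 higher, 79 lower) moved with the processing, and the cause was not tested unless the setting itself removes samples or genes. It was 395 (196 higher, 199 lower) with no filter on low counts, 67 with 37 lower in edgeR on the 6 libraries alone, 205 with 87 higher in DESeq2 on the 12 libraries, and 33 with log2(FPKM + 1) (13 higher, 20 lower) and with log2(FPKM + 0.1) (15 higher, 18 lower). With an offset for gene length 65 were higher, and log2 fold changes had a Spearman correlation of 0.16 with exon length over 16041 genes. Leaving out 1 library at a time gave 23 to 231 DEGs, 11 to 112 of them higher and 12 to 133 lower. Scaling by RLE (108) or the upper quartile (111), a mean of at least 1 CPM (111), limma-voom (108), no robust dispersion (117) and DESeq2 on the 6 libraries (130) stayed within 1.5 times. Without the MOG and GB20 libraries edgeR called 59 of the 120 DEGs and 39 of the 68 that the naming rule picked. With log2(FPKM + 1) 29 of the 120 were called. Among the lists, edgeR on the 6 libraries called 5 of the 13 pan-RGC markers, 1 RGC transcription factor, 1 axonal transport gene and 1 cholesterol gene lower and 2 microglial genes higher, but 4 neurofilament, 5 gliosis and 5 glucocorticoid-induced genes. With log2(FPKM + 1) these were 4, 1, 0, 0 and 2, and then 4, 2 and 2. Of the 120 DEGs, 24 were called in all 14 other settings and 0 changed direction.

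The replicate numbers of GV16 and SHAM are not stated to mark a shared batch. Between these 2 groups, same-numbered libraries correlated at 0.07, 0.12 and 0.13 in their deviations from the group means, each best with its own number. Over all pairs of the 4 groups, values for the same number ranged from -0.10 (SHAM and MOG replicate 2) to 0.36 (SHAM and GB20 replicate 2). Those for other numbers ranged from -0.29 to 0.15, so the numbers give a hint and no pairing. With the replicate block the count was 236 (94 higher, 142 lower), and with the length offset as well 324 (148 higher, 176 lower). Genes under about 1 CPM, such as Tc2n, Mmp12 and Sprr1a, rest on few reads, and depth limits them most.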

Other observations

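Pigment epithelium and melanocyte genes were uneven among the GV16 libraries. Rpe65, the isomerase of the visual cycle, had 1.68, 5.72 and 2.91 CPM in GV16 and 0.484, 1.35 and 1.11 CPM in SHAM, and Rgr, an opsin of the pigment epithelium, had 7.08, 23.7 and 14 CPM in GV16 and 6.72, 8.0 and 6.44 CPM in SHAM, so GV16 replicate 2 was the highest for both. Neither passed the threshold (edgeR adjusted p = 0.129 for Rpe65 and 0.372 for Rgr). Rps27, a ribosomal protein gene, had 74.5, 65.4 and 63.5 CPM in SHAM and 37.7, 32.5 and 27.2 CPM in GV16 without overlap while the 80 ribosomal protein genes had a median log2 fold change of 0.05 (Rps27 log2 fold change -1.06 ± 0.26 (SE), edgeR adjusted p = 0.151).

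Of 27 matrix and extracellular protease genes 2 were called, Mmp12 higher against 0.224% of all genes and Mmp9 lower against 0.432%, with a median log2 fold change of -0.05. None of 15 pigment epithelium, 11 neurotrophin, 7 retinal dopamine and melatonin, 5 lens, 3 erythrocyte, 8 myelin, 4 striated muscle or 12 mitochondrially encoded respiratory chain genes was called by edgeR, with 4 pigment epithelium genes, 2 myelin genes and 0 of the others at an unadjusted p under 0.05, against 10.9% of all genes. The lens genes had the lowest median of these (-0.72), and their sums of 22.9 to 28.5 CPM in GV16 and 22.5 to 43.6 CPM in SHAM overlapped.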
